A study of Mus musculus with 6 samples.

Results

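The genes described here are nuclear receptors, transcription factors of a single protein family, other than those treated as the core of retinoid signalling. They were followed in sorted lumbar motor neurons of the mouse at embryonic day 12. The members were chosen by name, with 1 row per gene, taken by its mean over the 6 arrays where a gene had several. Of 43 named genes, 38 had a row with a single gene symbol, among 14860 such genes and 23332 rows in all. Of the other 5, Nr1d1 and Esr2 share a row with another gene, and Nr1h2, Nr2e3 and Nr3c2 were not listed in the probe table. These 5 were not analysed here.

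All embryos carried the transgene HB9::GFP (line mHB9-Gfp1b), in which regulatory sequence of the motor neuron gene Mnx1, also called Hb9, drives green fluorescent protein. Columns of the lumbar cord were dissected apart and fluorescent cells were sorted, which gave 3 samples of medial motor neurons and 3 samples of lateral motor neurons, with 1 array each. The medial column innervates mainly axial muscle, and the lateral column at limb levels innervates limb muscle. The labels call the samples biological replicates and do not say how many embryos were pooled, so each p-value speaks only of the scatter among these samples. Fewer cells of a type and less RNA per cell cannot be told apart in such sorted pools.

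Most nuclear receptors bind DNA through a pair of zinc fingers and hold a pocket for a small fat-soluble ligand, such as a steroid, thyroid hormone, a fatty acid or an oxysterol. Some steroid receptors wait with chaperones in the cytoplasm. Many other nuclear receptors sit on DNA with corepressors and exchange them for coactivators when ligand binds. Orphan receptors, such as the COUP-TF and NR4A genes, have no established ligand in the cell and act largely through how much of them is made. In the spinal cord, Esrrg is known as a marker of gamma motor neurons, which set the sensitivity of muscle spindles, and COUP-TF genes take part in neuronal identity and migration.

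Values are the authors' deposited log2 values, and differences are medial minus lateral on that scale. Each test was limma's moderated test over all rows, with Benjamini-Hochberg adjustment and a threshold of 0.05, and errors of differences are standard errors. The array medians lay between 6.73 and 6.84. The column markers matched the labels, since Lhx3, Lhx4 and Mecom passed as higher and Foxp1, Aldh1a2 and Lhx1 as lower in the medial samples. Of 8 general motor neuron genes, all with means of at least 9.23, Mnx1 and Isl2 were higher and Isl1, Prph and Ret lower. Mnx1, whose regulatory sequence drives the reporter used for sorting, was 2.67-fold higher in the medial samples. Of markers of other cells, Spon1 and Shh of 4 floor plate genes were lower, and Sox2 of 9 progenitor genes and Cldn5 of 6 endothelial genes were higher. Among 7 interneuron, 4 sensory neuron, 3 Schwann and neural crest, 8 mesenchyme and cartilage, 3 blood, 6 myeloid and 6 skeletal muscle markers, 0 passed in limma, and 3 of them had an unadjusted p under 0.05, namely Ntrk2, Prrx1 and Sox9. The summed linear level of the floor plate genes ran from 1049 to 1156 in the medial arrays, against from 2186 to 2314 in the lateral arrays. That of the progenitor genes ran from 8073 to 8570 in medial and from 8255 to 8605 in lateral samples, and that of the endothelial genes from 176 to 178 in medial and from 154 to 167 in lateral samples. Such sums mostly follow the gene with the highest level. This is Vim for the progenitors (mean 12.9, difference −0.04 ± 0.07), Spon1 for the floor plate (mean 9.97) and Cldn5 for the endothelium (mean 5.83). The means of Sox2 and of all 6 endothelial genes lay below 7.44, the background limit described below. Ntn1 and Foxa2, the other floor plate genes measured, differed by −0.16 ± 0.08 and 0.03 ± 0.10 and did not pass. The part of these other cells in the results below was not tested.

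Of the 38 measured receptors, Esrrb and Nr3c1 were called higher in medial motor neurons, Nr2f1 and Nr4a2 were called lower, and 34 did not pass. Over all rows 3.07% passed, 1.13% as higher and 1.94% as lower. Of the 14860 genes with 1 row each, as the receptors were taken, 3.80% passed. The values of the groups did not overlap in 15 of the 38 receptors, 7 of them higher and 8 lower. This was so in 19.3% of all rows and in 22.2% of the 14860 genes. Signs were evenly split, with 19 positive and 19 negative differences, and the median difference was 3.5e-05, against 0.01 over all 14860 genes. Unadjusted p-values under 0.05 were found for 12 of the 38 receptors, for 13.4% of all rows and for 2155 of the 14860 genes. The 4 called receptors differed by 2.37-fold to 3.21-fold, so all 4 also met the fold minimum of 1.5 named in the study's design, as did 2.69% of rows. For 28 receptors the 95% interval of the difference lay wholly within a 1.5-fold change in either direction. Most of these, such as Hnf4g, Thrb and Vdr, had both group means at or below 7.44, the background limit described below. A narrow interval at such a level does not show equal expression.

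**Figure D1:**
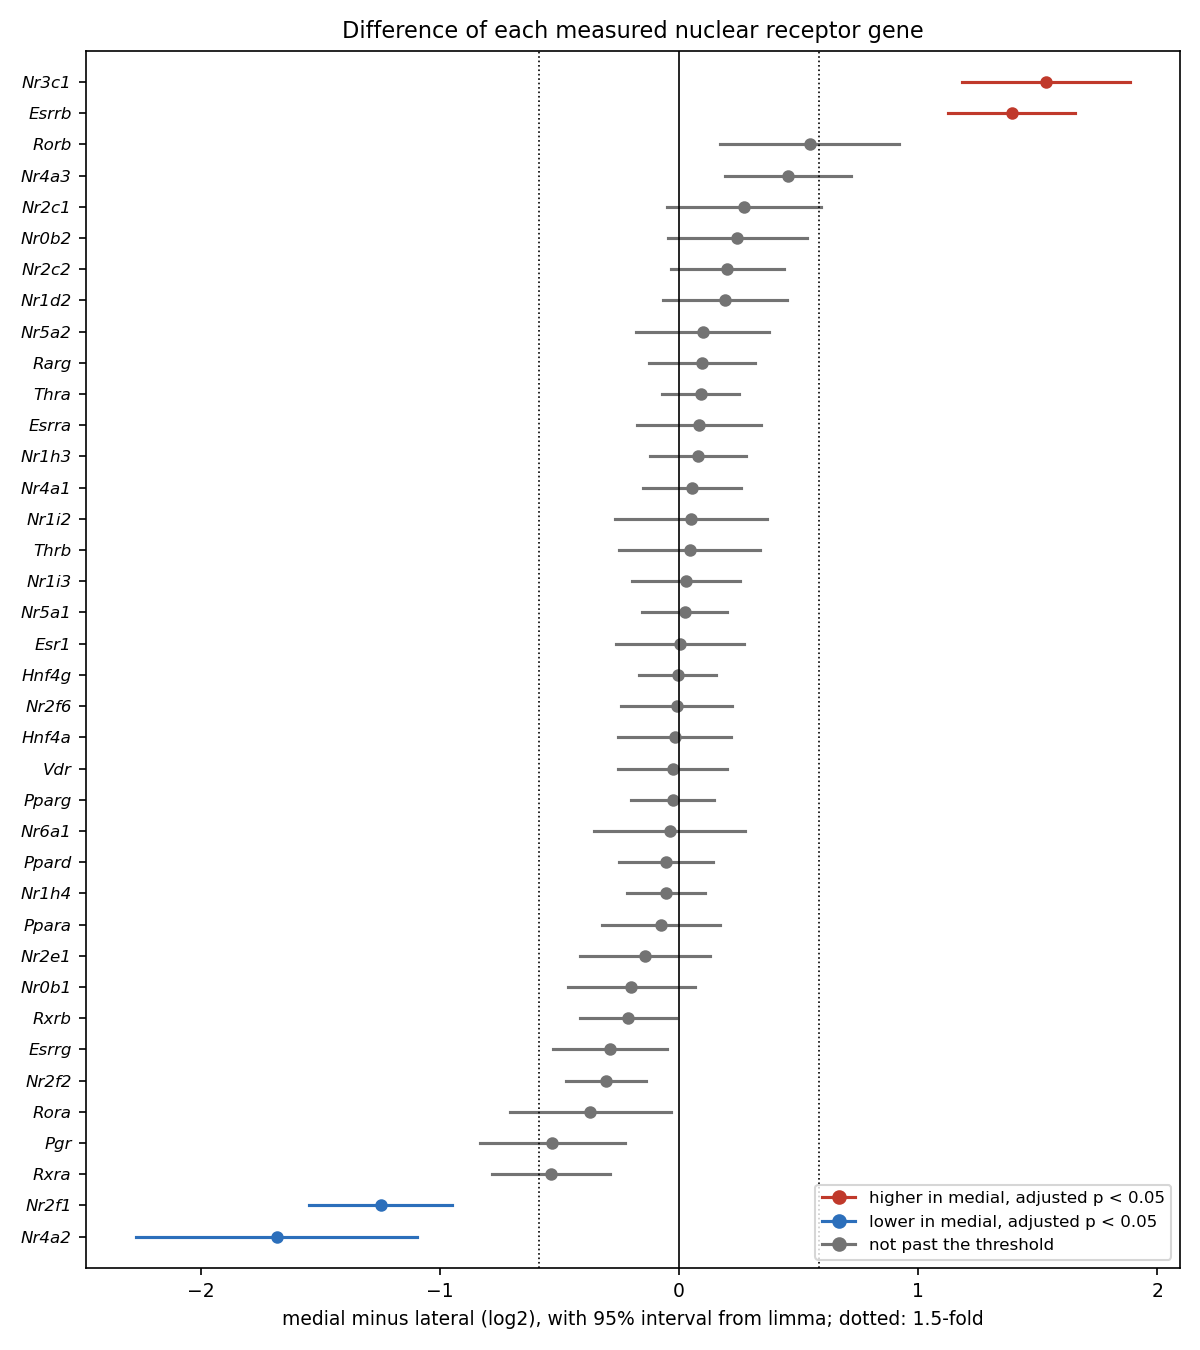
Medial minus lateral difference (log2, horizontal axis) of each of the 38 measured nuclear receptor genes, as a point with its 95% interval from limma, sorted by size. Nr3c1 and Esrrb lie to the right and Nr2f1 and Nr4a2 to the left of all others, and 28 intervals stay between the dotted lines at a 1.5-fold change. Most of these intervals belong to receptors with both group means at or below the background limit of 7.44.

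The level that cannot be told from background was judged from 15 genes of unrelated tissues, such as liver, eye and adult muscle, whose means ran from 3.96 to 7.44 with a median of 5.28. The highest belonged to the skeletal actin gene Acta1, and the next highest, Lor, stood at 6.76. Both group means were above 7.44 for 11 receptors and at or below it for 24. At or below the median of 5.28 in both groups were 8 receptors. Rows of different genes differ in probe response, so these are limits for reading a row and not a ranking of genes.

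**Figure D2:**
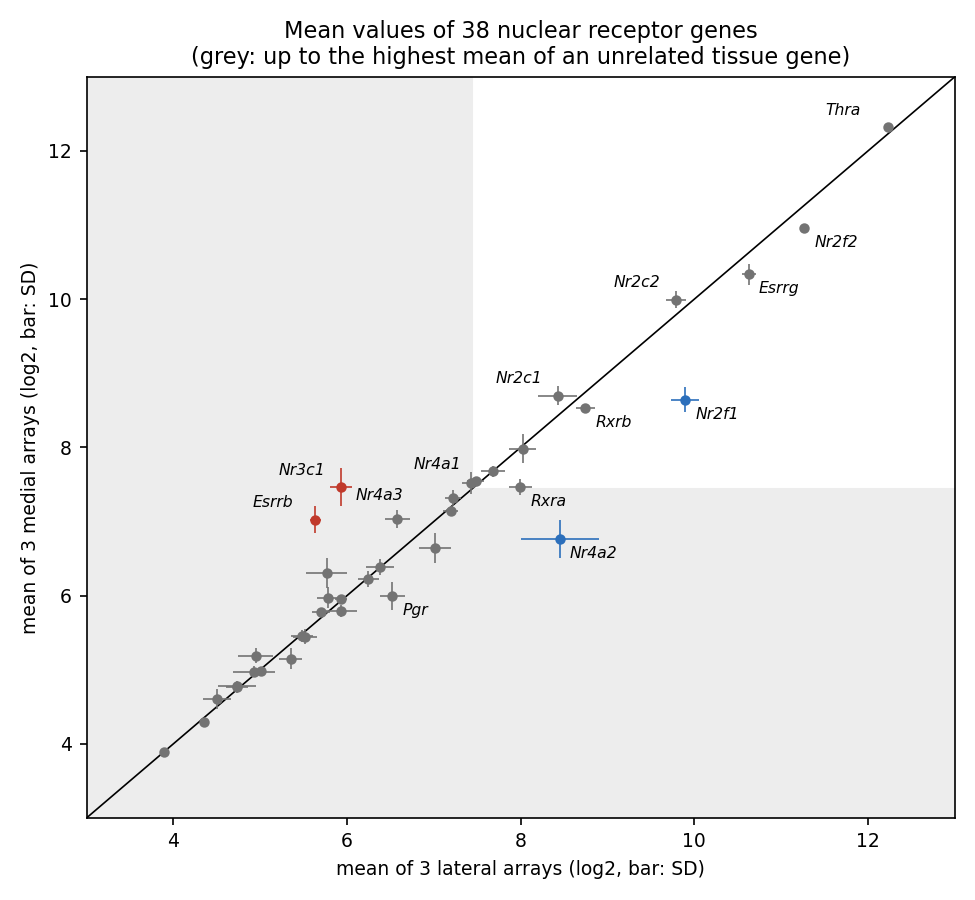
Mean of the 3 medial arrays (vertical axis, log2) against the mean of the 3 lateral arrays (horizontal axis, log2) for each of the 38 receptors, with SD bars. The grey area ends at 7.44, the highest mean of an unrelated tissue gene, and Esrrb lies inside it on both axes (medial 7.03, lateral 5.64). Nr3c1 has a medial mean of 7.46, just past the limit, and a lateral mean of 5.93 inside it, and Nr4a2 has a medial mean of 6.76 inside it.

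The receptor with the smallest p was Esrrb, an estrogen-related receptor that binds DNA without estrogen and is best known from pluripotent stem cells and the inner ear. Its deposited values were 7.23, 6.87 and 6.97 in medial replicates 1, 2 and 3, against 5.70, 5.60 and 5.61 in lateral replicates 1, 2 and 3. All medial values exceeded all lateral values by more than 1 log2 unit. The means were 7.03 ± 0.19 in the medial arrays, against 5.64 ± 0.06 in the lateral arrays (SD, n = 3 each), a 2.62-fold difference (log2 difference 1.39 ± 0.11, adjusted p = 0.00204 in limma). Both means lie below 7.44, the highest mean of an unrelated tissue gene, so by this limit neither level can be told from background, and the size of the fold is uncertain.

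Esrrg, the relative that marks gamma motor neurons, leaned the other way by a small amount. Its values were 10.46, 10.18 and 10.38 in the medial arrays, against 10.71, 10.56 and 10.60 in the lateral arrays. The lateral values were all above the medial ones, but the difference of −0.29 ± 0.10 did not pass (adjusted p = 0.266). Esrra, the family member tied to mitochondrial gene control, had overlapping groups and a difference of 0.08 ± 0.11. The within-array ratio of Esrrb to Esrrg averaged −3.31 ± 0.09 in the medial arrays, against −4.99 ± 0.02 in the lateral arrays (log2, SD, n = 3 each), a shift of 1.68. An exact two-sided permutation test gave p = 0.1, the smallest that 3 arrays against 3 allow. The pair was formed after the values were seen. Both genes had separated in opposite directions, so this outcome was fixed in advance and adds nothing to their own values.

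The 300-base window around the more upstream of the 2 starts that RefSeq lists for Esrrb lies at chr12:86360867-86361166 on the plus strand (GRCm38.p6). It is shown because Esrrb had the smallest p, with capitals marking TGACG or its complement CGTCA, the core of the cyclic AMP response element, and it holds this core 2 times.
Esrrb: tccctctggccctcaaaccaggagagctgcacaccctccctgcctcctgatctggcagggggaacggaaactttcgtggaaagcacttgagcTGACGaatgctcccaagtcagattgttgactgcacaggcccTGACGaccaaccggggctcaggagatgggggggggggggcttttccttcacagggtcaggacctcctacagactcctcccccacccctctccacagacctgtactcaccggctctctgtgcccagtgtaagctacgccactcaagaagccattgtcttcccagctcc

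Of 7 measured genes of oxidative metabolism under ERR control, 0 passed in limma and 0 had an unadjusted p under 0.05, with a median difference of 0.03. The smallest p belonged to Sdhb at −0.12 ± 0.07 and Cox5a at −0.13 ± 0.09. The coactivator gene Ppargc1b, a partner of ERR proteins, was 1.37-fold lower in the medial samples (−0.45 ± 0.07, adjusted p = 0.0261). The medial mean of Ppargc1b, 7.24, lay below the background limit of 7.44. Its relative Ppargc1a stood at 7.72 in the medial and 6.93 in the lateral samples on average, a difference of 0.80 ± 0.24 that did not pass (adjusted p = 0.199). Among 7 measured genes that later distinguish gamma from alpha motor neurons, 1 passed in each direction, 5 had an unadjusted p under 0.05, and the median difference was 0.04. Gfra1, a GDNF coreceptor of gamma neurons, was 1.65-fold lower in the medial samples. Rbfox3, which encodes the NeuN protein of alpha neurons, was 1.43-fold higher there. The other 3 with an unadjusted p under 0.05 were named after their values were seen and did not pass. Htr1d, a serotonin receptor gene of gamma neurons, differed by 0.59 ± 0.16, and Chodl and Mmp9, genes of fast alpha neurons, differed by −0.49 ± 0.15 and −0.34 ± 0.11. The groups did not overlap in these 3 genes. The Htr1d means (medial 5.18, lateral 4.59) and the Mmp9 means (medial 5.70, lateral 6.04) lay below 7.44, the background limit.

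Among the steroid hormone receptors, Nr3c1, which encodes the glucocorticoid receptor, was 2.90-fold higher in the medial samples. Its values were 7.73, 7.23 and 7.43 in the medial arrays, against 6.06, 5.80 and 5.93 in the lateral arrays. The lowest medial value stood more than 1 log2 unit above the highest lateral one. The means were 7.46 ± 0.25 for medial and 5.93 ± 0.13 for lateral samples (SD, n = 3 each), with a log2 difference of 1.54 ± 0.15 (adjusted p = 0.00385). The lateral mean lies within the range of the unrelated tissue genes, and the medial mean is just above their highest, 7.44, with replicates 2 and 3 below it.

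Pgr, the progesterone receptor gene, had values of 6.18, 5.98 and 5.81 in the medial arrays, against 6.67, 6.49 and 6.39 in the lateral arrays. The groups did not overlap, and the difference of −0.53 ± 0.13 did not pass (adjusted p = 0.105). Both Pgr means, 5.99 for medial and 6.52 for lateral samples, lay below the background limit of 7.44. Esr1, the estrogen receptor alpha gene, had overlapping groups with means of 6.39 for medial and 6.38 for lateral samples, and its 95% interval ran from −0.26 to 0.27.

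Of 9 measured glucocorticoid target genes, 1 rose and 0 fell, 3 had an unadjusted p under 0.05, all of them higher in the medial samples, and the median difference was 0.10. The gene that passed was Sgk1, which encodes a kinase that regulates ion transport, at 8.59, 8.50 and 8.52 in the medial arrays, against 8.16, 7.91 and 7.91 in the lateral arrays (1.46-fold, adjusted p = 0.0377). Ddit4, an inhibitor of mTOR signalling, differed by 0.37 ± 0.11 and did not pass. The third was Nfkbia, an inhibitor of NF-kappaB, which was named after its value was seen, at 0.38 ± 0.13 with overlapping groups. The other 6 differed by −0.18 to 0.38 and their groups overlapped. Of 8 measured genes of the receptor chaperone machinery, 0 passed in limma and 0 had an unadjusted p under 0.05. The smallest p there belonged to Dnaja1 at 0.27 ± 0.19 and Stip1 at 0.09 ± 0.08.

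**Figure D3:**
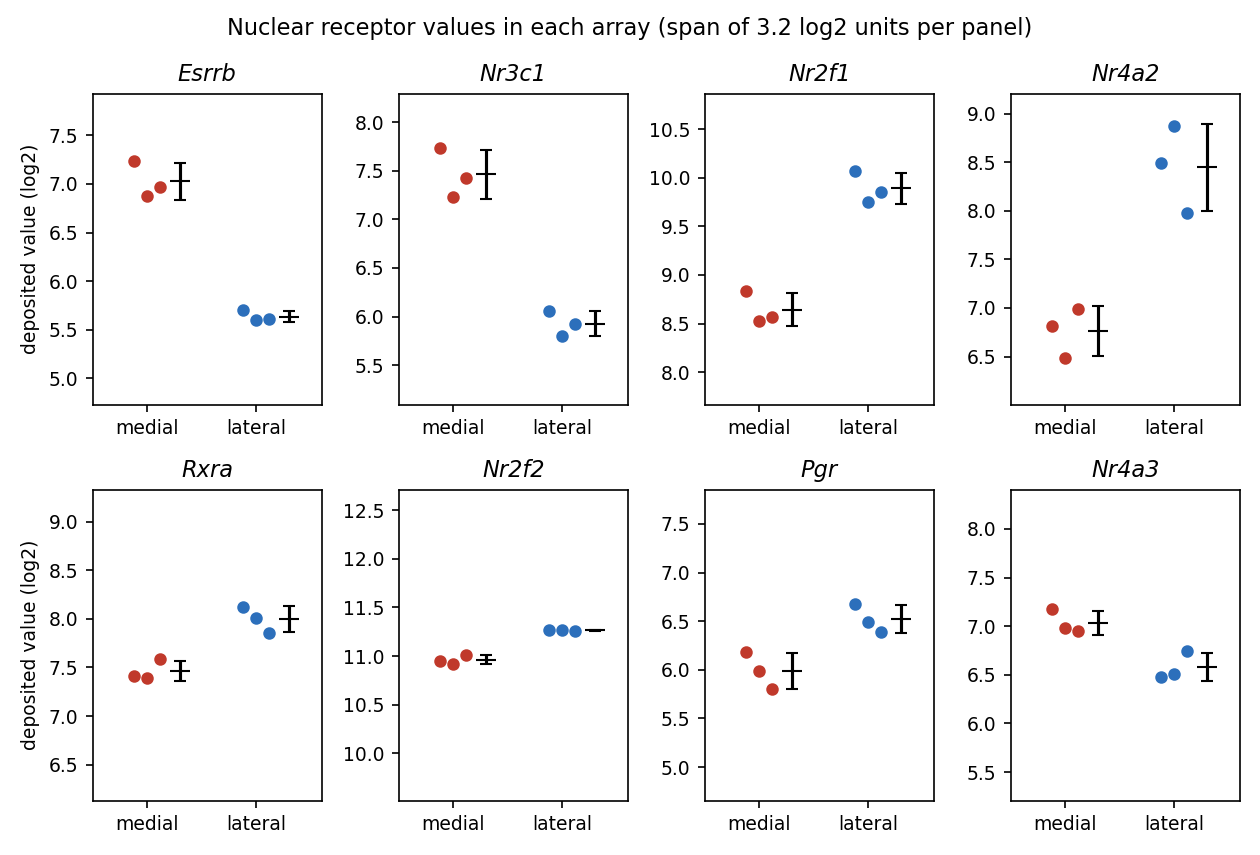
Deposited log2 value (vertical axis) in each medial and lateral array for the 4 receptors that passed and the 4 with the next smallest p, with the mean and SD beside the points. Every panel spans the same width of the log2 scale, and in all 8 the groups do not overlap.

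The COUP-TF genes are orphan receptors that mostly repress transcription and shape neuronal subtype and migration in the forebrain. Nr2f1 stood at 8.83, 8.52 and 8.57 in the medial arrays, against 10.07, 9.75 and 9.85 in the lateral arrays. All lateral values were above all medial ones. Nr2f1 was thus 2.37-fold lower in the medial samples (medial 8.64 ± 0.17, lateral 9.89 ± 0.16, SD, n = 3 each, log2 difference −1.25 ± 0.12, adjusted p = 0.00467), and both means were above the unrelated tissue genes.

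The close relative Nr2f2 had 2 rows. In the row with the higher mean, its values were 10.95, 10.92 and 11.01 in the medial arrays, against 11.27, 11.27 and 11.26 in the lateral arrays. The groups did not overlap, but the difference was small, −0.30 ± 0.07, and did not pass (adjusted p = 0.0904). In the second row the difference was −0.55 ± 0.10 and passed (adjusted p = 0.0467), with means of 8.12 ± 0.11 for medial and 8.67 ± 0.13 for lateral samples (SD, n = 3 each). Both rows were therefore lower in the medial samples, with different calls. Nr2f6, the most distant member, did not pass, at −0.01 ± 0.10 with an interval from −0.24 to 0.22. The within-array ratio of Nr2f1 to Nr2f2 was lower in the medial samples by 0.94 on the log2 scale (exact two-sided permutation p = 0.1, the smallest possible). This pair too was formed after the values were seen.

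The window at the more upstream of 2 listed starts of Nr2f1, chr13:78198824-78199123 on the minus strand, is shown because Nr2f1 was the COUP-TF gene that passed. It holds none of the 3 motifs searched, which are named further on, so it has no capitals.
Nr2f1: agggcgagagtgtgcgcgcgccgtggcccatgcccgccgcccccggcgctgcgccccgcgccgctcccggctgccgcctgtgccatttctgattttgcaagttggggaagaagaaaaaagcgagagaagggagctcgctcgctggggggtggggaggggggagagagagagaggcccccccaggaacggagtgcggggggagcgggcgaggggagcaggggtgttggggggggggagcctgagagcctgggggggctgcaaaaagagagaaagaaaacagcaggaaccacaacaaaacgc

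Bcl11a encodes a zinc finger protein that binds COUP-TF proteins and represses with them. It was 1.96-fold higher in the medial samples (medial 9.93, lateral 8.96, log2 difference 0.97 ± 0.09, adjusted p = 0.00395), the direction opposite to Nr2f1. Of 16 measured corepressor genes it was the only one that rose, and Nrip1, a corepressor of many ligand-bound receptors, was the only one that fell, by 1.06 ± 0.11 (adjusted p = 0.00639). The other 14 did not pass, and the median of the list was 0.07. Of 17 measured coactivator genes, Ppargc1b fell and 0 rose in limma, where 3 had an unadjusted p under 0.05, and the median was 0.11.

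The NR4A genes encode receptors whose pocket is filled by their own side chains, and they are switched on within minutes by calcium and cyclic AMP signals. Nr4a2, also called Nurr1, is required for midbrain dopamine neurons. Its values were 6.81, 6.49 and 6.99 in the medial arrays, against 8.49, 8.87 and 7.98 in the lateral arrays. The lateral values were more scattered than the medial ones, yet all lay above them. Nr4a2 was 3.21-fold lower in the medial samples (medial 6.76 ± 0.26, lateral 8.45 ± 0.45, SD, n = 3 each, log2 difference −1.68 ± 0.24, adjusted p = 0.0186). The medial mean lies below 7.44, so the size of this fold is uncertain too. It no longer passed when medial replicate 1, 2 or 3 or lateral replicate 1 was dropped, with adjusted p-values of 0.0673, 0.0698, 0.0583 and 0.0686, while the difference stayed between −1.92 and −1.47 in all 6 fits with an array left out.

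Nr4a3 leaned in the opposite direction, with values of 7.17, 6.98 and 6.95 in the medial arrays, against 6.48, 6.51 and 6.75 in the lateral arrays. The groups did not overlap, and the difference of 0.46 ± 0.11 did not pass (adjusted p = 0.107). Both Nr4a3 means, 7.03 for medial and 6.58 for lateral samples, lay below the background limit of 7.44. Nr4a1, also called Nur77, had overlapping groups with means of 7.54 for medial and 7.48 for lateral samples and a difference of 0.06 ± 0.08. The within-array ratio of Nr4a2 to Nr4a3 averaged −0.27 ± 0.28 in the medial arrays, against 1.87 ± 0.58 in the lateral arrays (log2, SD, n = 3 each), a shift of −2.14. In the medial arrays both genes of this ratio had means below 7.44, so the size of the shift is uncertain. The ratio of Nr4a2 to Nr4a1 shifted by −1.74. Each gave an exact two-sided permutation p of 0.1, the smallest possible. For Nr4a2 and Nr4a3, whose groups separated in opposite directions, this outcome was fixed in advance. These ratios were among 5 pairs formed after the values were seen, with adjusted p-values over the 5 that are also 0.1.

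The promoter windows of these 3 genes are shown because they share a feature that the choice of genes did not use. It was noticed after the windows had been searched. Each holds TGACG or CGTCA 4 times, in capitals here. In the RefSeq promoter table (GRCm38.p6, 250 bases before to 50 after a start), 0.231% of 32851 windows hold at least 4 copies, and 20.8% hold at least 1. Both motif forms contain CG, and the GC content is 72.3% for Nr4a1, 81.7% for Nr4a2 and 64.7% for Nr4a3. The median over all windows is 52.7%, so these shares come from windows of unlike composition. The Nr4a1 window is chr15:101266596-101266895 on the plus strand, that of Nr4a2 is chr2:57123954-57124253 on the minus strand, and that of Nr4a3 is chr4:48045055-48045354 on the plus strand.
Nr4a1: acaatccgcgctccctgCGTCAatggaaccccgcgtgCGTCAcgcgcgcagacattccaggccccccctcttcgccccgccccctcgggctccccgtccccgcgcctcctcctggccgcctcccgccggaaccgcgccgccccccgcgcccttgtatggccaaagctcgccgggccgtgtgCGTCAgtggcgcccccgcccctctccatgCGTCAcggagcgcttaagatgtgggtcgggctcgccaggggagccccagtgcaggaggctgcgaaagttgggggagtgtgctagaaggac
Nr4a2: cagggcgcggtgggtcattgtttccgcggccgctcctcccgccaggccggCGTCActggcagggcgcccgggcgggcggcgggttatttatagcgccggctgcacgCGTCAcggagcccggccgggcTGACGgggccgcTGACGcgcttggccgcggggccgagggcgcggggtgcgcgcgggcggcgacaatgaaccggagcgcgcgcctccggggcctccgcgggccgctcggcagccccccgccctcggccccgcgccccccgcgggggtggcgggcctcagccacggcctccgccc
Nr4a3: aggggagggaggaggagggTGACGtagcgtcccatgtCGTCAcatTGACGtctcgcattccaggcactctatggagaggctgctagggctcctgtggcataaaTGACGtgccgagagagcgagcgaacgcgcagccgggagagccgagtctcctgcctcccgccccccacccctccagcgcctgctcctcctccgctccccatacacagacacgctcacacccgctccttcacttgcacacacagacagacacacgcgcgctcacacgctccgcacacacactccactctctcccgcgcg

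Among 12 measured immediate early genes, which respond to the same signals, 0 passed in limma and 1 had an unadjusted p under 0.05. That gene was Jun, at −0.43 ± 0.16, and the next smallest p belonged to Btg2, at 0.73 ± 0.33. The median difference of the 12 genes was 0.21, against 0.01 over all genes. Within the medial group each of the 12 was highest in replicate 1. The median was not computed without the arrays numbered 1, so it is no sign of a lean across all arrays. Fos and Egr1 were named after their values were seen, because 1 pair of arrays stood apart. Fos stood at 9.62, 7.05 and 6.90 in medial replicates 1, 2 and 3, and at 8.20, 7.00 and 7.17 in lateral replicates 1, 2 and 3. Egr1 stood at 10.08, 7.61 and 8.22 in the medial arrays, against 8.16, 7.33 and 7.57 in the lateral arrays. Both genes were thus highest, within each group, in the array numbered 1. Of the 38 receptors, 12 were likewise highest in the array numbered 1 in both groups, among them Esrrb, Nr3c1 and Nr2f1 of the called receptors and Nr4a1. Nr4a2 was not highest in these arrays in either group. The part of this in the results was not tested beyond the following fit. Without both arrays numbered 1, a fit chosen after these values were seen, the Nr4a2 difference was −1.68 and did not pass (adjusted p = 0.176), while Esrrb, Nr3c1 and Nr2f1 passed, with adjusted p-values between 0.0273 and 0.0297.

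Further motifs were searched in the same windows on both strands, AGGTCA, the core that many nuclear receptors bind, and TAATTA, a site of homeodomain proteins. Windows on chromosome 18, where Nr3c1 lies, were left out of the receptor windows but kept among all windows. Of the 38 receptors, 34 had at least 1 window that was used, 51 in all. AGGTCA occurred in 19.6% of the receptor windows and in 16.3% of all windows. TGACG occurred in 25.5% and 20.8%, and TAATTA in 1.96% and 5.29%. Overlap between motifs was allowed, and a match is a description of letters and not a bound site. Which start the array measures is not known. Thra, Hnf4g and Nr5a1 were not matched to a window, and Nr3c1 was left out with its chromosome.

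Rxra, Rxrb and Rarg were measured here beside the receptors they pair with. RXR proteins are the common partners of thyroid hormone, vitamin D, PPAR and liver X receptors. Rxra stood just outside the threshold, with values of 7.41, 7.39 and 7.58 in the medial arrays, against 8.13, 8.01 and 7.85 in the lateral arrays. The groups did not overlap, and the difference was −0.53 ± 0.10 (adjusted p = 0.0504). It passed in 5 of 8 alternatives that kept all arrays, with adjusted p-values from 0.0127 to 0.139, and in 0 of 6 limma fits with an array left out (0.0546 to 0.180).

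Rxrb had values of 8.53, 8.50 and 8.56 in the medial arrays, against 8.86, 8.72 and 8.65 in the lateral arrays. The medial values were all lower, by a difference of −0.22 ± 0.08 that did not pass (adjusted p = 0.333). Rarg, the gamma type of retinoic acid receptor, had overlapping groups and differed by 0.10 ± 0.09. The third RXR gene, Rxrg, which is not counted among the 38, ran the other way at 10.75 in the medial and 9.22 in the lateral samples on average (difference 1.54 ± 0.24, adjusted p = 0.0245), and Rara differed by 0.52 ± 0.12 and did not pass.

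The thyroid hormone receptor gene Thra had values of 12.35, 12.30 and 12.32 in the medial arrays, against 12.22, 12.24 and 12.24 in the lateral arrays. The groups did not overlap, but the difference was only 0.09 ± 0.07, with a 95% interval from −0.07 to 0.25 (adjusted p = 0.666). Thrb had means of 4.77 for medial and 4.73 for lateral samples, within the lower part of the unrelated tissue genes. Dio2, whose enzyme converts the prohormone thyroxine to the active hormone, was 1.62-fold lower in the medial samples, at 5.92, 5.81 and 5.91 there, against 6.37, 6.83 and 6.52 in the lateral samples (adjusted p = 0.0433). All of these Dio2 values are below 7.44. Cyp46a1, whose enzyme makes an oxysterol ligand of liver X receptors in neurons, was 1.42-fold lower in the medial samples (adjusted p = 0.048). Its medial mean of 6.99 lay below 7.44. Of 22 measured genes of ligand supply and clearance these were the 2 that fell, 0 rose in limma, and 3 had an unadjusted p under 0.05. The median of that list was 0.01. Of 6 measured thyroid hormone target genes, 1 fell and 0 rose in limma, with 1 unadjusted p under 0.05. That gene was Shh, which is also one of the floor plate markers given above, and Nrgn at 0.18 ± 0.08 did not pass.

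**Figure D4:**
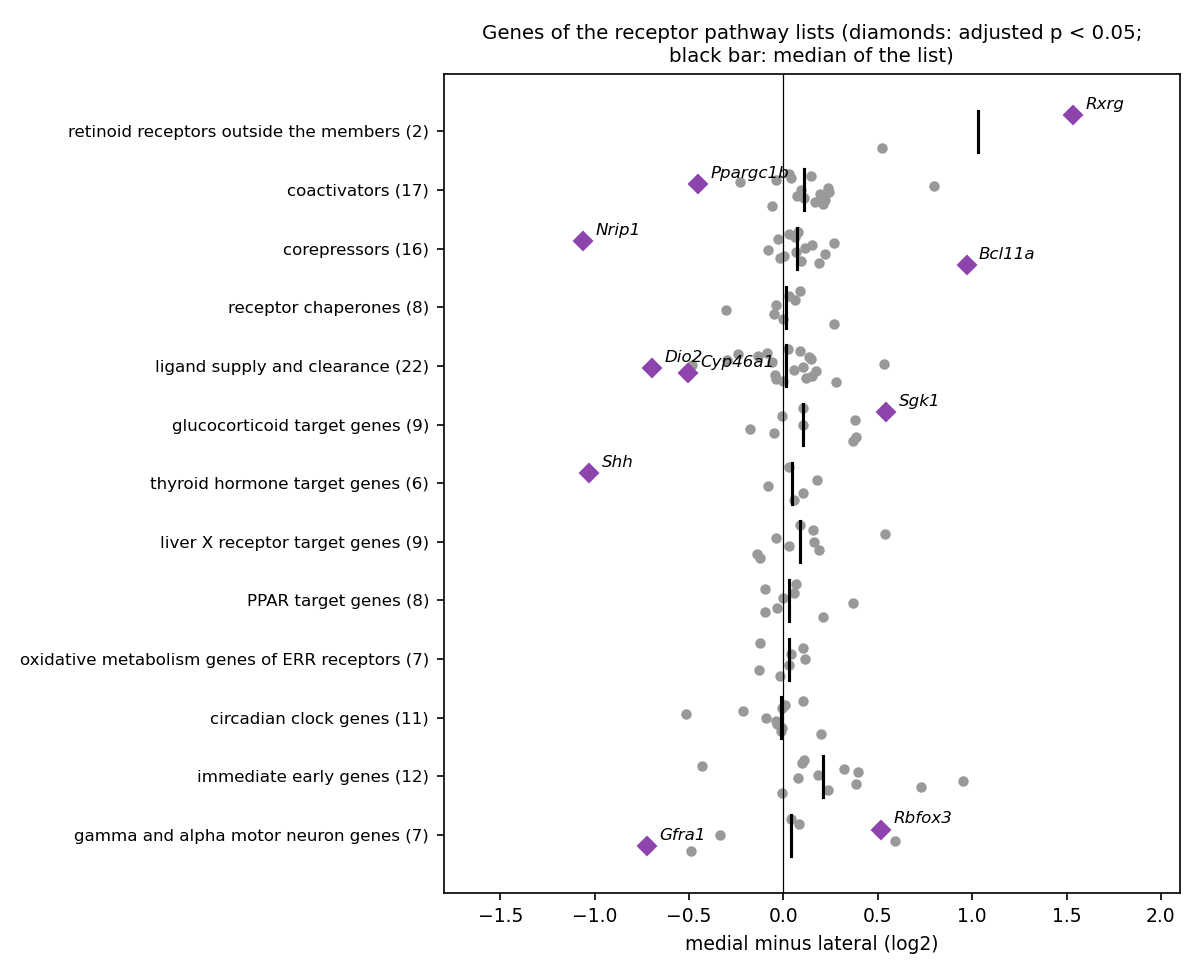
Medial minus lateral difference (log2, horizontal axis) of the measured genes of each receptor pathway list, with the number measured in brackets. Diamonds with names passed the threshold, grey points did not, and the black bar is the median of the list, which lies between −0.01 and 0.21 except for the pair of retinoid receptors.

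The testicular receptor genes Nr2c1 and Nr2c2 encode orphan receptors that bind the sites of retinoid and thyroid hormone receptors. Nr2c2 had values of 10.12, 9.91 and 9.95 in the medial arrays, against 9.88, 9.83 and 9.66 in the lateral arrays. The groups came close but did not overlap, and the difference of 0.20 ± 0.10 did not pass (adjusted p = 0.459). Nr2c1 had overlapping groups and a difference of 0.27 ± 0.13. Nr6a1, the germ cell nuclear factor gene, which shuts down pluripotency genes in the early embryo, had overlapping groups with means of 7.98 for medial and 8.02 for lateral samples.

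The ROR genes bind sites shared with the REV-ERB repressors of the circadian clock. Rorb had values of 6.39, 6.08 and 6.46 in the medial arrays, against 5.95, 5.84 and 5.50 in the lateral arrays. All medial values were higher, but the difference of 0.55 ± 0.16 did not pass (adjusted p = 0.176). Rora leaned the other way, at −0.37 ± 0.14, also without overlap and without passing (adjusted p = 0.315). The group means of Rorb and Rora all lay below 7.44, the background limit. Nr1d2, a REV-ERB gene, had overlapping groups and differed by 0.19 ± 0.11. Of 11 measured circadian clock genes, 0 passed in limma and 2 had an unadjusted p under 0.05, and the median difference was −0.01. These were Nfil3, a repressor of the clock output genes, at −0.52 ± 0.12, and Npas2 at −0.22 ± 0.07.

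The receptors of lipid and bile metabolism did not pass. The PPAR genes Ppara, Ppard and Pparg, sensors of fatty acids, had differences of −0.08 ± 0.10, −0.05 ± 0.08 and −0.03 ± 0.07. Of these, the means of Ppard were 7.14 in the medial and 7.19 in the lateral samples, and those of Pparg were 4.98 in the medial and 5.01 in the lateral samples. Nr1h3, a liver X receptor gene, differed by 0.08 ± 0.08, and Nr1h4, the bile acid receptor gene, by −0.05 ± 0.07. Of 8 measured PPAR target genes and 9 measured liver X receptor target genes, 0 passed in limma, and 1 and 2 had an unadjusted p under 0.05. The smallest p in these lists belonged to Cpt1a at 0.37 ± 0.08, whose enzyme brings fatty acids into mitochondria, and to the desaturase gene Scd1 at 0.54 ± 0.11 (adjusted p = 0.0652). Acadm at 0.21 ± 0.14 and Apoe at 0.19 ± 0.07 followed.

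Most of the remaining receptors are best known from liver, gonads, adrenal gland, gut or eye. The xenobiotic receptor genes Nr1i2 and Nr1i3 had group means from 4.73 to 4.97. Hnf4a, a master regulator of liver genes, had means of 6.23 for medial and 6.24 for lateral samples, and Hnf4g had means of 3.89 in both groups. The gonadal and adrenal factor Nr5a1 had means of 5.95 for medial and 5.93 for lateral samples, and its relative Nr5a2 had 4.60 for medial and 4.50 for lateral samples. Vdr, the vitamin D receptor gene, had means of 5.46 for medial and 5.48 for lateral samples. Nr2e1, a repressor of transcription that is active in neural stem cells, had means of 5.79 for medial and 5.93 for lateral samples. The atypical receptors Nr0b1 and Nr0b2, which lack the usual DNA-binding domain, had group means from 4.95 to 5.35. All of these means lay below 7.44. The differences of these 10 genes ran from −0.20 to 0.24, and the groups overlapped in each of them except Nr0b2.

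**Figure D5:**
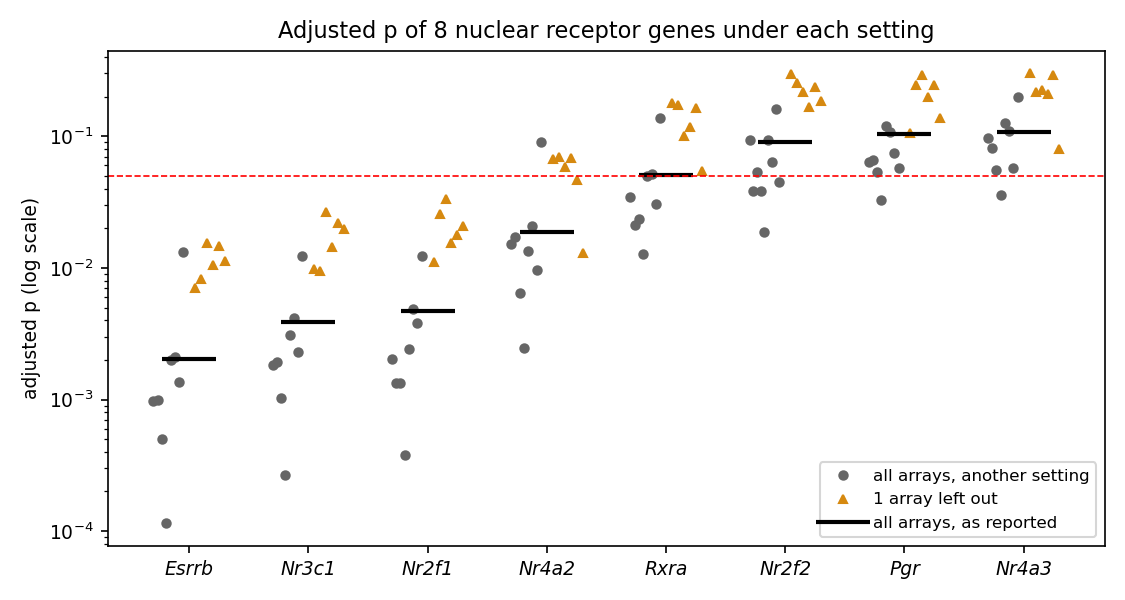
Adjusted p (vertical axis, log scale) of 8 receptors as reported (bar), under other settings with all arrays (circles) and with 1 array left out (triangles), with the threshold of 0.05 as a dashed line. Esrrb, Nr3c1 and Nr2f1 stay below the line in every fit shown, Nr4a2 crosses it, and Rxra, Nr2f2, Pgr and Nr4a3 cross it only with all arrays.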

How the data were processed

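RNA of the sorted cells was fragmented and biotinylated (Affymetrix WT kit), per the labels' protocols. The authors deposited 1 table of processed values, whose unit was taken as log2 from their range. Summarization, background correction and normalization are not given in the sources used here, so centring is unknown. The build is mm9, per the submitters' processing notes. Gene names came from the platform's probe table, updated through Entrez identifiers to GRCm38.p6.

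The fit of medial against lateral samples (3 each) used limma 3.58.1 under R 4.3.3, without a block, over all 23332 rows, of which 14996 had 1 symbol. No row was filtered, since the table has no detection calls. The number of arrays limits precision. At most 7 values were identical between 2 arrays. The fit was tested on simulated data. Members and lists were chosen with earlier results of these data known. Values per array are given for members that passed, the 6 next by p and the 6 with the highest mean. Of each other list, genes that passed and up to 2 with the smallest p are named. The alternatives changed centring, quantile normalization, a minimum mean of 6, the rows used, the variance prior, array weights, the block, the fold minimum of 1.5 and the arrays. Promoter windows are RefSeq's, and 3 motifs were searched.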

Additional observations from a re-analysis of the deposited data

How the results depend on the processing

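The 2 receptors that rose, Esrrb and Nr3c1, and the falling Nr2f1 passed in 8 fits with other settings and all arrays and in 6 with an array left out, with adjusted p-values of at most 0.0155, 0.0268 and 0.0336. The count of receptors that fell was 2 as reported. It was 4 with quantile normalization, 5 with 1 row per gene with a single symbol, which tests fewer rows, and 1 without both arrays numbered 1. Quantile normalization added Nr2f2 and Rxra, and 1 row per gene added these and Pgr. With an array left out the count ran from 1 to 2. The count of receptors that rose was 2 in all of these except 1 row per gene, which added Nr4a3 and gave 3. Over all rows, 717 passed as reported, 326 to 538 with an array left out (361, 377 and 326 without medial replicates 1, 2 and 3, and 407 without lateral replicate 2), and 201 without both arrays numbered 1, which leaves 2 arrays a group. The cause of the other changes was not tested. The samples of both groups carry shared numbers. Deviations from the group mean correlated between same-numbered samples with r of 0.351, 0.0669 and 0.0151, and medial replicate 2 correlated best with lateral replicate 3 (0.299). Deviations cancel within each group, so these values depend on each other and cannot settle whether the samples were paired. The numbers were not taken as pairs in the reported fit. With the replicate block, 481 rows passed, and of the receptors 2 rose and 1 fell, since the adjusted p of Nr4a2 became 0.0904. Centring and quantile normalization moved the median of all rows by 0.0098 and 0.0028. Of 556 receptor values under an alternative, 11 came past the threshold, 6 no longer passed, all of Nr4a2, and 539 kept their side. Leaving aside the fit without both arrays numbered 1, signs changed 26 times, in 11 receptors that had not passed, with differences of at most 0.05. Signal near background limits the folds of low rows, such as Esrrb and Nr3c1.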
